A study of Mus musculus with 8 samples.

Results

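The transcripts of 9 transcription factors that define hepatocyte identity were followed in mouse liver. They were the nuclear receptors Hnf4a and Nr5a2, the forkhead factors Foxa1, Foxa2 and Foxa3, the basic leucine zipper factors Cebpa and Cebpb, and the homeobox factors Prox1 and Onecut1. The genes were chosen by name, not by their values, although earlier results of these data were known. Of the 46078 rows of the count table they were 9, and all 9 were among the 14654 genes that passed the filter on low counts. No difference of any of the 9 between genotypes passed the adjusted threshold by edgeR or DESeq2. Foxa3 had the largest difference, with a mean in Rbfox2 KO livers of 133.6% of that in WT livers, and 7 of the 9 factors had a mean within 10% of the WT mean.

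Liver RNA was sequenced from 5 WT mice and 3 Rbfox2 KO mice. All 8 drank water with 30% (w/v) fructose for 22 weeks, starting at 8 weeks of age, and the livers were taken after fasting and frozen. Mice of both genotypes carried Rbfox2 alleles flanked by LoxP sites. The Rbfox2 KO mice also carried a Cre recombinase driven by the albumin promoter, meant to inactivate the gene selectively in hepatocytes. Whether all other liver cells kept an intact gene was not tested here. Rbfox2 encodes an RNA-binding protein that controls alternative splicing. The comparison addresses whether the factors that set the hepatocyte programme differ in level when this splicing regulator is lost under a fructose diet.

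These factors form a network in which members bind the regulatory regions of each other and of genes for plasma proteins, lipid handling, bile acid synthesis and gluconeogenesis. The Foxa proteins open compacted chromatin early in liver development. HNF4A and C/EBPα then maintain the mature programme, and ONECUT1 and PROX1 take part in the growth and specification of the liver bud.

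The sequences around the transcription start sites were examined first. RefSeq windows of 300 bases on GRCm38.p6, from 250 bases before to 50 bases after a start site, were available for all 9 factors, with 14 windows because some genes have several start sites. Both strands were searched for FOXA motifs in the A form TGTTTAC or the G form TGTTTGC, for the HNF4A motif CAAAGTCCA, for its direct repeat form CAAAGGTCA, for the C/EBP motif TTGCNNAA, for the HNF1 motif GTTAATNAT, for the ONECUT motif ATTGATT and for the NR5A2 motif CAAGGTCA. The last of these and the direct repeat form share most of their letters. At least 1 of these motifs lay in 6 of the 14 windows, against 22.5% of 32851 windows of the same length. A match is a run of letters and not a measured binding site. The 5 windows printed here are that of Foxa3, the factor with the largest difference between genotypes, and 4 that hold a FOXA, ONECUT or HNF1 motif. Each is written 5′ to 3′ on the strand of the gene, with the motif in capitals.
Foxa3, chr7:19023490-19023789, minus strand: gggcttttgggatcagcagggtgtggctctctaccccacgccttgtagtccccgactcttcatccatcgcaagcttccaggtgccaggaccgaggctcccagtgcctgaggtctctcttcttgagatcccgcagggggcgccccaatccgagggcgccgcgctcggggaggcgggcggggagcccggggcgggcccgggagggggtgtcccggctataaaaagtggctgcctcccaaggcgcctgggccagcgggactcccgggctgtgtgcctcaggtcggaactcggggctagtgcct
Foxa1, chr12:57546062-57546361, minus strand: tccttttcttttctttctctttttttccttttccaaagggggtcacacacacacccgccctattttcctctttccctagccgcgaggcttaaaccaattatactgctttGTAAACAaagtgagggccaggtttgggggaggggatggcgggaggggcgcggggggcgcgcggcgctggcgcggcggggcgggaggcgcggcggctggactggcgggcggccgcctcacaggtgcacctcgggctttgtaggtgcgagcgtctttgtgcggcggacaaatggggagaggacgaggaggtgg
Hnf4a, start site 1, chr2:163506607-163506906, plus strand: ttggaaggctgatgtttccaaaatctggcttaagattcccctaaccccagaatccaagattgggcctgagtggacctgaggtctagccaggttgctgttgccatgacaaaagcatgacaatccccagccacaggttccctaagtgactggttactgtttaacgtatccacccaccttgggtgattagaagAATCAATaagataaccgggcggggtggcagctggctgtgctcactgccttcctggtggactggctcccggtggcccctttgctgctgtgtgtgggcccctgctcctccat
Nr5a2, start site 1, chr1:136960399-136960698, minus strand: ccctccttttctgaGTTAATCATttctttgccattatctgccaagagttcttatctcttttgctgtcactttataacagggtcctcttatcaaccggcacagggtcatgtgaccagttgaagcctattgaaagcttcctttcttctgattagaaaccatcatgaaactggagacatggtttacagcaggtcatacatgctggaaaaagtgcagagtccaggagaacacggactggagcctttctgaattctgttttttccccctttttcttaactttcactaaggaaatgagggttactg
Prox1, start site 2, chr1:190169466-190169765, minus strand: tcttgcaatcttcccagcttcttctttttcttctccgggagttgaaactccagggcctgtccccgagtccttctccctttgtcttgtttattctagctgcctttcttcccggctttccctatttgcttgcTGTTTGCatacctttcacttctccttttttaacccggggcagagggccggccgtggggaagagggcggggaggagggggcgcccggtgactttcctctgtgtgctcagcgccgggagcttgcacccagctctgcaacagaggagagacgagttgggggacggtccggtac
The Foxa3 window held none of the motifs. The Foxa1 window held a FOXA motif of the A form at -141 from the start site, on the opposite strand, a form found in 3.65% of all windows. The Hnf4a window of start site 1 held an ONECUT motif on the opposite strand at -60, found in 2.86% of all windows. The Hnf4a window of start site 2 held none of the motifs, and which start site these livers used was not tested. The Nr5a2 window of start site 1 held an HNF1 motif at -236, which 0.801% of all windows held. The Prox1 window of start site 2 held a FOXA motif of the G form at -120, which 5.07% of all windows held. Among windows not printed, start site 1 of Foxa2 held an ONECUT motif at -213, and start site 2 of Nr5a2 held a C/EBP motif at -243, a motif found in 10.8% of all windows. The windows of Cebpa, Cebpb and Onecut1 held none. Nor did those of start sites 2 and 3 of Foxa2 and start site 1 of Prox1.

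Total counts ran from 24829693 to 37823155 per library. Levels are CPM, the count relative to library size after trimmed-mean (TMM) scaling, and 3 counts equalled 0.0839 to 0.118 CPM. The TMM factors ran from 0.821 in WT 3 to 1.29 in Rbfox2 KO 1, and a higher factor lowers the CPM of every gene in that library. Rbfox2 was lower in every Rbfox2 KO library than in every WT library, at 49.0% of the WT mean (log2 fold change -1.03 ± 0.21 SE, edgeR adjusted p = 0.328, DESeq2 adjusted p = 0.0019). Markers of hepatocytes summed to 78786 to 85205 CPM in WT and 72902 to 87303 CPM in Rbfox2 KO livers, with all 9 markers detected in every library. Most of each sum was Alb, with 49124 to 61594 CPM. By the fitted log2 fold change, 5 of the 9 markers were higher and 4 lower in Rbfox2 KO. The library of Rbfox2 KO 1 stood apart in its pancreatic transcripts. Its 12 pancreatic exocrine markers summed to 447.7 CPM against 4.78 to 16.95 CPM in the other 7, and it differed from Rbfox2 KO 2 and 3 by a chi-square per degree of freedom of 258 and 345, against 45.3 between those. Of the WT libraries, WT 3 differed most from others, by 222 from WT 5, 219 from WT 1 and 146 from WT 2. Fold changes, shares, ratios and the pairs of factors were also computed without Rbfox2 KO 1. In whole liver, fewer cells of a type and less RNA per cell cannot be told apart.

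The levels of the 9 factors differed widely. Per kilobase (kb) of exon, Cebpa had the highest level, with 102 ± 10.5 CPM per kb (SD, n = 5) in WT, followed by Hnf4a with 83.2 ± 15.6. Cebpb had 44.9 ± 3.33 and Foxa3 had 19.2 ± 2.80 CPM per kb in WT. Nr5a2, Foxa2 and Prox1 lay close together, at 6.51 ± 0.679, 6.42 ± 0.658 and 6.34 ± 0.512 CPM per kb. Foxa1 had 2.79 ± 0.529 and Onecut1 had 0.527 ± 0.191 CPM per kb. Neighbours in this order did not overlap over the 8 libraries, except that Cebpa was above Hnf4a in 7 of 8 libraries, Nr5a2 above Foxa2 in 3 of 8, and Foxa2 above Prox1 in 4 of 8. Among 14598 genes with an exon length, Cebpa stood at percentile 97.2 and Hnf4a at 96.6 in WT, whereas Onecut1 stood at 23.7.

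**Figure D1:**
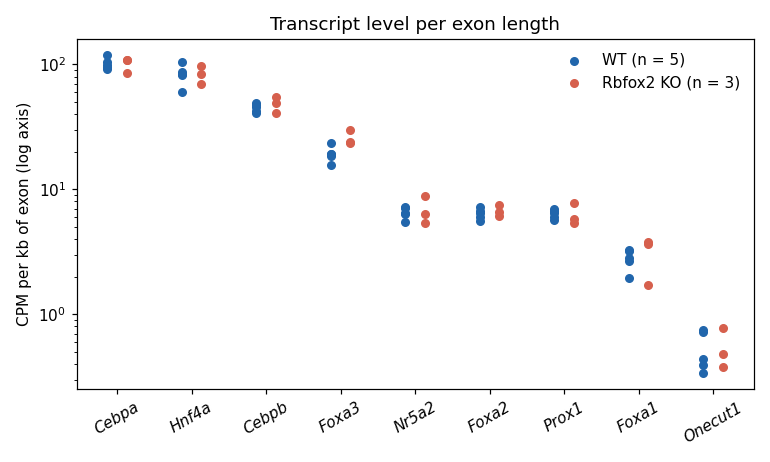
Level of each factor per exon length, in CPM per kb on a log axis, with 1 point per library (blue, 5 WT; red, 3 Rbfox2 KO). Cebpa and Hnf4a are highest, Nr5a2, Foxa2 and Prox1 share a range from 5.40 to 8.83 CPM per kb, and Onecut1 is lowest in every library.

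Shared exons limit the lowest and the third of these levels. A same-strand long non-coding RNA, Gm20649, covers 52.8% of the exon bases of Onecut1 and had 0 counts in every library. Reads in the shared part may have been assigned to neither gene. If none of them was, the level of Onecut1 per unshared kb was 0.716 to 1.64 CPM, still below the lowest Foxa1 level of 1.71 CPM per kb. The same bound for Cebpb, which shares 20.7% of its exon bases with Tmem189 on the opposite strand, was 51.1 to 69.6 CPM per kb, a range that overlaps the 59.99 to 103.7 of Hnf4a.

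The spread among WT mice differed between the factors. The coefficient of variation over the 5 WT livers was below the median of all tested genes, 15.4%, for 6 of the 9. Cebpb varied least, with 7.42%, and Prox1 had 8.08%. Foxa1 had 18.97%, Hnf4a 18.7% and Onecut1 36.2%. Low genes vary more, so each factor was also ranked among tested genes whose WT mean CPM was within 0.5 on the log2 scale of its own. There Cebpb stood at percentile 26.4 and Prox1 at 32.3, whereas Hnf4a stood at 82.2 and Onecut1 at 90.8. Onecut1 rested on 43 to 87 reads per library, so counting error is part of its spread.

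The comparison of genotypes was first taken over the whole table. edgeR called 0 of 14654 genes at an adjusted p of 0.05 (0%), and before adjustment 694 genes were under 0.05 (4.74%). After adjustment DESeq2 called 59 genes (0.403%), and the CPM values of the groups did not overlap for 543 genes (3.71%). Of the 9 factors, 0 were called by either tool, 1 had an unadjusted p under 0.05 and 0 had groups that did not overlap. By edgeR their median log2 fold change was 0.07, against 0.00095 for all tested genes. Of the factors, 7 were higher and 2 lower in Rbfox2 KO livers, against 7362 and 7292 of all tested genes. By DESeq2, 6 factors were higher and 3 lower, and without Rbfox2 KO 3 the edgeR median of the factors was -0.02. At 95%, the intervals of 8 factors included no change, and those of 6 lay within a 1.5-fold change either way.

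**Figure D2:**
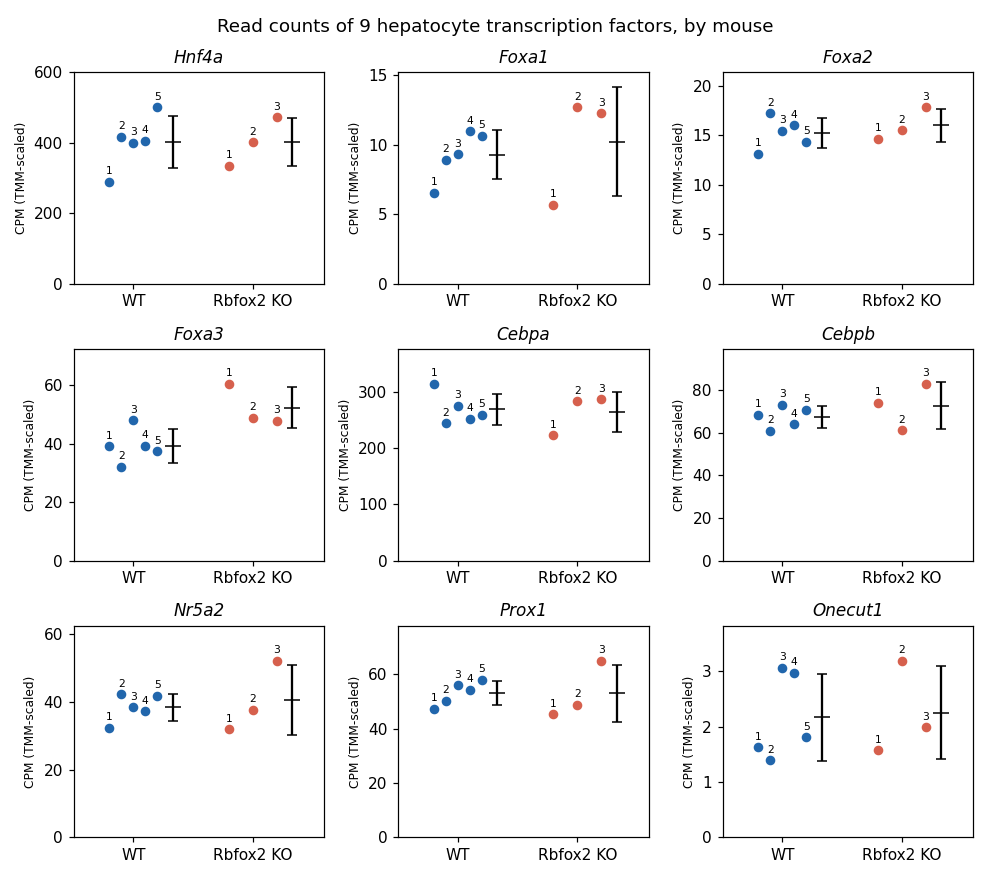
Level of each factor in every mouse, in TMM-scaled CPM from 0, with points numbered by mouse (blue, 5 WT; red, 3 Rbfox2 KO) and the mean with SD beside them. The groups overlap for all 9 factors, and for Foxa3 the overlap is a single pair, Rbfox2 KO 3 at 47.8 and WT 3 at 47.99.

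The forkhead factors differed most among themselves. Foxa3 (ENSMUSG00000040891), which acts in glucose homeostasis of the adult liver, lies at 19013284 to 19023538 of chromosome 7 (GRCm38, minus strand). It had 39.1, 32.2, 47.99, 39.3 and 37.3 CPM in WT 1 to 5 and 60.4, 48.8 and 47.8 CPM in Rbfox2 KO 1 to 3. Rbfox2 KO 1 was the highest of the 8, Rbfox2 KO 2 was above all WT libraries, and Rbfox2 KO 3 was just below WT 3 and above the other 4. Foxa3 was 1.34-fold higher in Rbfox2 KO livers, with a 95% interval from 1.09 to 1.64 (log2 fold change 0.42 ± 0.13 SE). The unadjusted edgeR p was 0.00994 and the edgeR adjusted p was 0.882. DESeq2 gave an adjusted p of 0.405, and the exact permutation test of the means gave p = 0.0357 (two-sided), where the smallest possible is 0.0179. Without Rbfox2 KO 1 the log2 fold change was 0.30, with an unadjusted edgeR p of 0.0575. Over 16 alternatives it stayed between 0.30 and 0.57, always higher in Rbfox2 KO, with adjusted p between 0.405 and 1.0. The highest of these came from scaling by library totals, which brought the all-gene median to 0.12, and relative to that median Foxa3 was higher by 0.45.

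Foxa2 (ENSMUSG00000037025, chromosome 2, 148042877 to 148046969, minus strand) regulates bile acid and lipid metabolism in fasting. It had 13.1, 17.2, 15.4, 15.97 and 14.3 CPM in WT 1 to 5 and 14.6, 15.5 and 17.8 CPM in Rbfox2 KO 1 to 3. The groups overlapped over most of their range, with a log2 fold change of 0.07 ± 0.11 (SE) and a 95% interval from -0.18 to 0.32. As folds, the interval ran from 0.882 to 1.25.

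Foxa1 (ENSMUSG00000035451, chromosome 12, 57540628 to 57546916, minus strand), the pioneer factor that shares its binding sites with Foxa2, was the most variable of the family. It had 6.54, 8.92, 9.31, 10.97 and 10.6 CPM in WT 1 to 5 and 5.68, 12.7 and 12.3 CPM in Rbfox2 KO 1 to 3. Rbfox2 KO 1 was the lowest of the 8 libraries and Rbfox2 KO 2 and 3 were the highest. The log2 fold change was 0.14 ± 0.26 (SE), with a 95% interval from -0.44 to 0.71 and an unadjusted edgeR p of 0.610. Without Rbfox2 KO 1 it was 0.42, with an unadjusted edgeR p of 0.0463 and an adjusted p of 1.0. Foxa1 thus took the place of Foxa3 as the 1 factor with an unadjusted p under 0.05 when that library was left out.

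Within a library, shares of the family do not depend on how libraries are scaled. Foxa3 made up 71.9, 61.4, 71.7, 65.8 and 66.5% of the Foxa1 to Foxa3 counts per kb in WT 1 to 5. In Rbfox2 KO 1 to 3 it made up 79.0, 69.8 and 67.7%. Only Rbfox2 KO 1 lay outside the WT range. The WT mean of 67.4% ± 4.43 (SD, n = 5) and the Rbfox2 KO mean of 72.2% ± 6.02 (SD, n = 3) had a difference of 4.73 percentage points with an exact permutation p of 0.25 (two-sided). Without Rbfox2 KO 1 the difference was 1.31 points (exact permutation p = 0.810). The share of Foxa2 was 22.7% ± 3.29 in WT and 19.1% ± 2.62 in Rbfox2 KO livers, and that of Foxa1 was 9.83% ± 1.82 and 8.77% ± 3.66.

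**Figure D3:**
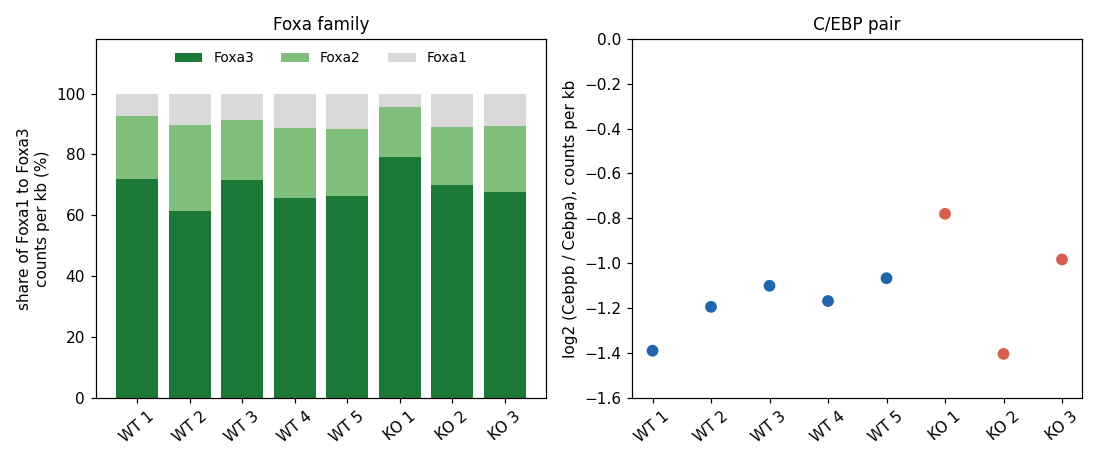
Left, share of Foxa1, Foxa2 and Foxa3 in the family's counts per kb, in percent, with 1 stacked bar per mouse. Right, log2 ratio of Cebpb to Cebpa counts per kb in each mouse (blue, WT; red, Rbfox2 KO), where Rbfox2 KO 1 (-0.78) and Rbfox2 KO 3 (-0.98) lie above all WT mice and Rbfox2 KO 2 (-1.40) lies below all of them.

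The nuclear receptors were at like means in both genotypes. Hnf4a (ENSMUSG00000017950, chromosome 2, 163506808 to 163572910, plus strand) controls a large part of the hepatocyte programme, from apolipoproteins to clotting factors. It had 289.6, 415.8, 398.9, 404.4 and 500.6 CPM in WT 1 to 5 and 334.0, 400.9 and 471.7 CPM in Rbfox2 KO 1 to 3. All 3 Rbfox2 KO libraries lay within the WT range. The log2 fold change was 0.0013 ± 0.17 (SE), with a 95% interval from -0.38 to 0.39, or 0.767-fold to 1.31-fold.

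Nr5a2 (ENSMUSG00000026398, chromosome 1, 136842571 to 136960448, minus strand), also called LRH-1, activates bile acid synthesis and cholesterol uptake genes. It had 32.3, 42.3, 38.4, 37.3 and 41.7 CPM in WT 1 to 5 and 31.9, 37.6 and 52.1 CPM in Rbfox2 KO 1 to 3. The lowest and the highest of the 8 libraries were both Rbfox2 KO livers. The log2 fold change was 0.08 ± 0.15 (SE), with a 95% interval from -0.26 to 0.42. Nr5a2 is also expressed in pancreatic acinar cells. Rbfox2 KO 1, the library with the raised pancreatic markers, had the lowest Nr5a2 level of the 8 after TMM scaling. This rank depends on the scaling. Rbfox2 KO 1 had the lowest total count but 1017 Nr5a2 counts, above the 875 of WT 1 and the 957 of Rbfox2 KO 2 and below the other libraries. The part of pancreatic cells in the Nr5a2 level was not tested.

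The C/EBP factors showed the smallest spread among the WT mice for Cebpb and the highest level per kb for Cebpa. Cebpa (ENSMUSG00000034957, chromosome 7, 35119293 to 35121928, plus strand), which maintains the differentiated, non-dividing hepatocyte, had 314.7, 244.4, 275.3, 252.7 and 260.3 CPM in WT 1 to 5 and 223.0, 283.9 and 287.6 CPM in Rbfox2 KO 1 to 3. Its log2 fold change was -0.03 ± 0.12 (SE), with a 95% interval from -0.30 to 0.25, and the sign turned without Rbfox2 KO 1 (0.08).

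Cebpb (ENSMUSG00000056501, chromosome 2, 167688915 to 167690418, plus strand) is induced in the acute phase response, in fasting and in liver regeneration. It had 68.5, 60.9, 73.3, 64.1 and 70.9 CPM in WT 1 to 5 and 74.1, 61.2 and 83.0 CPM in Rbfox2 KO 1 to 3. Rbfox2 KO 1 and 3 were above all WT libraries and Rbfox2 KO 2 was near the WT minimum. The log2 fold change was 0.11 ± 0.11 (SE), with a 95% interval from -0.14 to 0.36. Cebpb is also expressed in macrophages and neutrophils. The 8 Kupffer cell markers summed to 371.7 and 343.1 CPM in Rbfox2 KO 1 and 3, above the 259.3 to 303.2 of the WT libraries, and to 269.1 in Rbfox2 KO 2. The 8 neutrophil and monocyte markers followed the same order, with 92.3, 75.3 and 51.5 CPM in Rbfox2 KO 1, 3 and 2 against 45.1 to 70.6 in WT. In each list, 7 of 8 markers were higher in Rbfox2 KO, 0 of them past the adjusted edgeR threshold, and no marker was at 0 in all libraries. The part of these cells in the Cebpb level was not tested.

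The balance of the C/EBP factors within a library was given by the log2 ratio of Cebpb to Cebpa per kb. The WT mean was -1.18 ± 0.126 (SD, n = 5), the Rbfox2 KO mean was -1.06 ± 0.319 (SD, n = 3), and the difference of 0.13 had an exact permutation p of 0.464 (two-sided). Without Rbfox2 KO 2 the difference was 0.30 (exact permutation p = 0.0476, the smallest that 5 against 2 can give), and without Rbfox2 KO 1 it was -0.0097 (exact permutation p = 0.905).

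The homeobox factors did not differ beyond their spread. Prox1 (ENSMUSG00000010175, chromosome 1, 190118035 to 190170714, minus strand), a prospero homeobox factor that restrains HNF4A and NR5A2 activity, had 47.4, 50.4, 55.97, 54.2 and 58.1 CPM in WT 1 to 5 and 45.3, 48.8 and 65.0 CPM in Rbfox2 KO 1 to 3. The Rbfox2 KO libraries again included both the lowest and the highest of the 8. The log2 fold change was -0.0052 ± 0.13 (SE), with a 95% interval from -0.29 to 0.28. Prox1 also marks lymphatic endothelium, and the 8 endothelial markers summed to 195.7 to 218.0 CPM in WT and 183.3 to 209.8 CPM in Rbfox2 KO livers. That list is not specific to lymphatic endothelium, and the part of lymphatic cells in the Prox1 level was not tested.

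Onecut1 (ENSMUSG00000043013, chromosome 9, 74861921 to 74891781, plus strand), also called HNF6, acts in bile duct formation and in the rhythm of liver metabolism. It had 44, 43, 87, 85 and 61 counts in WT 1 to 5 and 50, 81 and 71 counts in Rbfox2 KO 1 to 3, or 1.39 to 3.06 CPM in WT and 1.57 to 3.19 CPM in Rbfox2 KO. The log2 fold change was 0.04 ± 0.32 (SE). Its 95% interval, from -0.67 to 0.76, was the widest of the 9, or 0.628-fold to 1.69-fold.

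**Figure D4:**
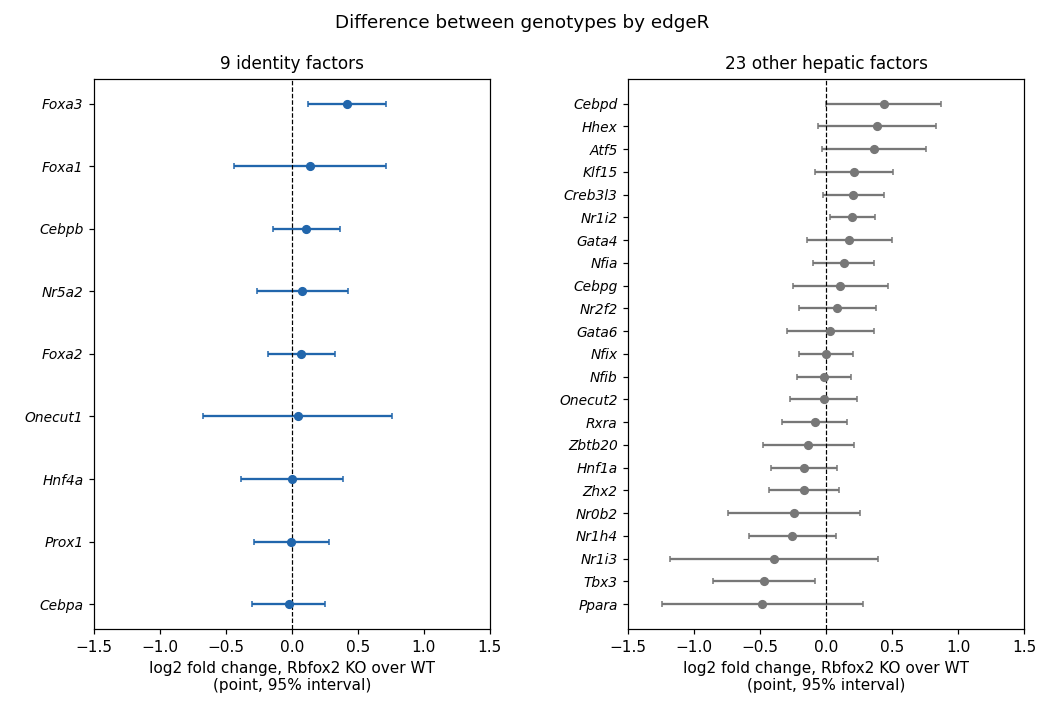
Log2 fold change of Rbfox2 KO over WT by edgeR with its 95% interval for the 9 identity factors (left) and 23 of the 24 other hepatic factors (right). Foxa3, at 0.42, is the only factor on the left whose interval does not include 0, and on the right those of Nr1i2 and Tbx3 do not include it.

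Whether the factors varied together among the mice was examined last for the 9. Over the 8 livers, log2 CPM was compared for the 36 pairs of factors, and Pearson r ran from -0.25 to 0.87, with 26 positive and 10 negative. No pair passed an adjusted p of 0.05, and 6 had an unadjusted exact permutation p under 0.05. The highest r was between Nr5a2 and Prox1, with r = 0.869 (exact permutation p = 0.00541, adjusted p = 0.166) and Spearman rho = 0.810 (exact permutation p = 0.0218, adjusted p = 0.331). Without the 2 livers farthest from the median of Nr5a2, r was 0.569, so this relation rests in part on those livers. Hnf4a and Nr5a2 had r = 0.836 (exact permutation p = 0.0100, adjusted p = 0.166) and rho = 0.810 (exact permutation p = 0.0218), and r was 0.954 without the 2 livers farthest in Hnf4a. Hnf4a and Prox1 had r = 0.791 (exact permutation p = 0.0201, adjusted p = 0.166) and rho = 0.786 (exact permutation p = 0.0279), and r was 0.862 without 2 livers. Within genotypes, as deviations from the group means, these 3 pairs had r of 0.885, 0.841 and 0.794. Among the 10 pairs of Hnf4a, Nr5a2, Prox1, Foxa1 and Foxa2, r without the 2 farthest livers ran from -0.09 to 0.95. It was lower than over all 8 for 6 of the 10 and below 0.5 for 5, all of which involved Foxa1 or Foxa2. Foxa3 had r of -0.23 with Hnf4a and -0.25 with Nr5a2, and its highest r was 0.51 with Cebpb, none of them past the threshold. These values depend on the scaling. With library totals, r of Foxa3 was 0.23 with Hnf4a, 0.20 with Nr5a2 and 0.77 with Cebpb.

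**Figure D5:**
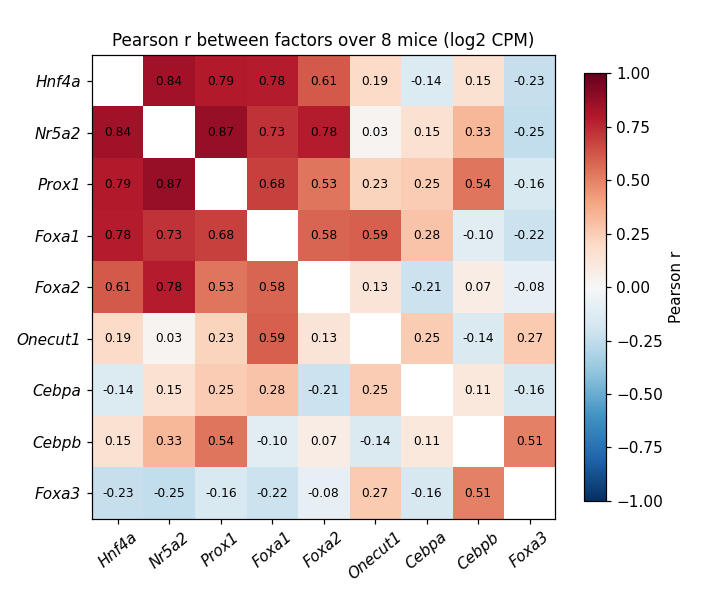
Pearson r of log2 CPM over 8 mice for each of the 36 pairs of factors, coloured from blue (-1) to red (1). Hnf4a, Nr5a2, Prox1, Foxa1 and Foxa2 have positive r from 0.53 to 0.87 with each other, of which 5 of 10 fall below 0.5 without the 2 farthest livers, whereas Foxa3 is at or below 0.51 with every other factor. The values shown are TMM-scaled, and with library totals r of Foxa3 with Cebpb is 0.77.

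The genes whose pattern over the 8 libraries was most like that of each factor were named by the highest r. For Hnf4a these were Brpf3 (r = 0.990, rho = 0.976) and Atrnl1 (r = 0.987, rho = 0.976), and 534 genes had r over 0.9 with it. Foxa3 was most like Rbpms (r = 0.992, rho = 0.976) and Sh3bgrl (r = 0.981), and 36 genes were over 0.9. Foxa2 was most like Paics (r = 0.978, rho = 0.929) and Ppat (r = 0.967, rho = 0.952), which encode enzymes of purine synthesis and lie side by side in the genome. Foxa1 was most like Prep (r = 0.989) and Dusp6 (r = 0.969), Nr5a2 like Rnf115 and Arrdc2 (r = 0.976 and 0.975), and Prox1 like Rexo1 (r = 0.982) and Pim3 (r = 0.971). Cebpa had Grik5 (r = 0.974) and Fancc (r = 0.941), and Cebpb had Sgip1 (r = 0.941) and Tmpo (r = 0.934), with 12 and 8 genes over 0.9. The closest to Onecut1 were Hsd3b4 and Gm10681 (both r = 0.977), which had identical counts in every library, at 0 to 0.865 CPM, so they cannot be taken as separate matches. These values are the highest of all tested genes over only 8 libraries, so they describe these libraries and carry no test.

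Other genes of the hepatic factor network were examined as a list of 24, all of which passed the filter. Of these, 0 were called by edgeR or DESeq2. Before adjustment 1 was under 0.05 upward and 2 downward by edgeR, and 11 were higher and 13 lower in Rbfox2 KO, with a median log2 fold change of -0.01. The groups did not overlap for 2 of 24, against 3.71% of all tested genes. Nr1i2, the pregnane X receptor that induces drug metabolism, had 60.1 to 64.3 CPM in WT and 69.9 to 72.5 CPM in Rbfox2 KO livers (log2 fold change 0.20 ± 0.08 SE, unadjusted edgeR p of 0.0272, adjusted p = 0.954). The 8 cholangiocyte markers summed to 27.3 to 38.8 CPM in WT and 30.5 to 37.9 CPM in Rbfox2 KO. Tbx3, a T-box factor of liver development, had 18.7 to 23.8 CPM in WT and 10.8 to 19.2 CPM in Rbfox2 KO (log2 fold change -0.47 ± 0.17 SE, unadjusted edgeR p of 0.0220, adjusted p = 0.943). Without Rbfox2 KO 1 the log2 fold changes were 0.20 for Nr1i2 and -0.26 for Tbx3, with unadjusted edgeR p of 0.0577 and 0.0546. Atf5, a bZIP factor with the highest mean of the list, had a WT mean of 414 ± 49.0 CPM (SD, n = 5) and an Rbfox2 KO mean of 532 ± 160 CPM (SD, n = 3). It had 710.6, 482.7 and 401.7 CPM in Rbfox2 KO 1 to 3, against 355.6 to 480.4 CPM in WT. Its log2 fold change was 0.36 (unadjusted edgeR p of 0.0696), and without Rbfox2 KO 1 it was 0.089 (unadjusted edgeR p of 0.539).

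The products of hepatocytes that these factors are known to regulate were the last list, with 27 genes, all tested. edgeR and DESeq2 called 0 of them, and 0 were under 0.05 by edgeR before adjustment. By DESeq2 before adjustment, 1 was under 0.05 upward (Cps1) and 1 downward (Ttr). By edgeR 15 were higher and 12 lower in Rbfox2 KO, the median log2 fold change being 0.03. The groups did not overlap for 0 of 27, against the same share. The smallest unadjusted p was that of Cps1, the first enzyme of the urea cycle, with a WT mean of 1153 ± 168.6 CPM (SD, n = 5) and an Rbfox2 KO mean of 1514 ± 430.6 CPM (SD, n = 3). Its log2 fold change was 0.39 ± 0.19 (SE), with an unadjusted edgeR p of 0.0627. Ttr, the thyroid hormone carrier transthyretin, had 4926 ± 596.3 CPM and 3950 ± 504.3 CPM (log2 fold change -0.32 ± 0.16 SE, unadjusted edgeR p of 0.0716). Cps1 had 1312, 1222 and 2009 CPM in Rbfox2 KO 1 to 3, against 930 to 1338 CPM in WT. Only Rbfox2 KO 3 lay outside the WT range, and Rbfox2 KO 1 and 2 lay within it, above the WT mean. No fit of Cps1 without Rbfox2 KO 3 is given here. Without Rbfox2 KO 1 the unadjusted edgeR p of Cps1 was 0.0427, with a log2 fold change of 0.48, and that of Ttr was 0.161. Tat, tyrosine aminotransferase, had a log2 fold change of 0.37 ± 0.20 (SE). Alb had the highest mean, with 56690 ± 2436 CPM in WT and 56454 ± 6517 CPM in Rbfox2 KO. Genes expressed in fetal liver summed to 1.44 to 10.9 CPM in WT and 1.57 to 8.69 CPM in Rbfox2 KO.

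Transcripts that lie across the factor genes were also counted. Of 6 such genes in the table, 3 passed the filter, and for all 3 the CPM values of the groups did not overlap, against 3.71% of all tested genes. Hnf4aos, a transcript antisense to Hnf4a with no shared exon bases, had 1.86 to 2.68 CPM in WT and 0.565 to 1.82 CPM in Rbfox2 KO (log2 fold change -0.71 ± 0.33 SE, unadjusted edgeR p of 0.0524, adjusted p = 1.0). It was lower in all 3 Rbfox2 KO livers while Hnf4a lay within its WT range. Prox1os, antisense to Prox1 with 133 shared exon bases, had 3.46 to 5.16 CPM in WT and 5.37 to 6.62 CPM in Rbfox2 KO (log2 fold change 0.45 ± 0.16 SE, unadjusted edgeR p of 0.0181, adjusted p = 0.904). Tmem189, a protein-coding gene whose exons share 312 bases with Cebpb on the opposite strand, had 14.45 to 18.2 CPM in WT and 11.7 to 14.35 CPM in Rbfox2 KO (log2 fold change -0.30 ± 0.12 SE, unadjusted edgeR p of 0.0253, adjusted p = 0.954). Without Rbfox2 KO 1 the log2 fold changes were -0.35 for Hnf4aos, 0.38 for Prox1os and -0.25 for Tmem189, with unadjusted edgeR p of 0.128, 0.0638 and 0.0828. Whether reads were counted by strand is not given in the sources used here, so reads of Prox1 and Prox1os, and of Cebpb and Tmem189, may not be told apart in the shared bases. Gm28172, across Prox1, had at most 16 counts, and Gm25881, within Hnf4a, had 0 counts in every library. Gm45091, which shares 51 exon bases with Cebpa, was not analysed here.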

How the data were processed

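Liver RNA from 8 mice (5 WT, 3 Rbfox2 KO) was measured by RNA-seq, and groups and sample numbers came from the labels. Each numbered sample was taken as 1 mouse, and if samples shared a mouse the p-values would measure technical spread only. The deposited values were raw counts for each Ensembl gene. The authors sequenced poly(A) RNA with paired reads of 100 bases, aligned them to GRCm38 with TopHat2 2.0.11 as stranded libraries and counted them with featureCounts (the submitters' processing notes and the study's methods). The submitters' processing notes name CASAVA 1.8.4, and the study's methods name another version. The strand setting of counting and the treatment of reads with several alignments are not given in the sources used here. The study names DESeq2 and edgeR-voom-limma with an adjusted p of 0.05. No authors' comparison columns were in the table.

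Genes were named from GENCODE mouse M21 (45143 of 46078 matched), and exon lengths are the union of annotated exons. Counts were filtered with filterByExpr, scaled by TMM, and tested for genotype alone with robust quasi-likelihood in edgeR 4.0.16 (R 4.3.3). P-values were adjusted over all tested genes by Benjamini-Hochberg. SE is the size of the log2 fold change divided by the square root of F, and intervals are at 95%. CPM means and shares were compared by exact permutation, two-sided, over the 56 ways of assigning 5 and 3 samples, and correlations with exact permutations of the pairings (log2 CPM, prior count 2). A floor of 3 counts covers only counting error, because the reads carry no molecular identifiers. Depth was 24829693 to 37823155 counts per sample. The scripts were tested on simulated data.

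The members and lists were chosen with earlier results of these data known. Besides the 9 factors and Rbfox2, the text names, from each of the 2 further lists, the 3 genes with the smallest unadjusted p and that with the highest mean, for each factor the 2 most alike genes, and the genes that overlap a factor. The values of 1 gene of these lists are not reported here. Marker lists covered hepatocytes, cholangiocytes, fetal liver, Kupffer cells, neutrophils and monocytes, stellate cells, endothelium, exocrine pancreas and skeletal muscle. Alternatives were DESeq2 1.42.0, its size factors, library totals, no filter or at least 1 CPM in 3 samples, limma-voom (limma 3.58.1), a non-robust fit, the sample number as a block, other lengths and prior counts, and leaving out each sample in turn. DESeq2 without each sample in turn was added after the data were seen. Nothing in the sources says how the mice were grouped by litter, cage or sequencing batch.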

Additional observations from a re-analysis of the deposited data

How the results depend on the processing

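Member, other-factor and function-gene calls were 0 under all 16 alternatives. Foxa3, Foxa2 and Cebpb kept their direction in all fits, except Foxa2 without Rbfox2 KO 3. Of all genes, edgeR called 0 with each sample left out and 6 with no filter, whereas DESeq2 called 59, and 43, 107 and 32 without Rbfox2 KO 1, 2 and 3 and 89, 34, 41, 38 and 55 without WT 1 to 5. Signs near 0 turned. Hnf4a was -0.0034 on the log2 scale by the DESeq2 Wald test and with DESeq2 size factors, Cebpa 0.067 with library totals, and Prox1 0.086 with library totals, 0.0083 with no filter and 0.034 with the replicate block. Relative to the median of all genes under library totals, Cebpa was -0.05, Prox1 -0.03 and Hnf4a -0.04, which turns its sign. With 1 sample left out, the log2 fold changes ran from -0.13 to 0.11 for Hnf4a, -0.048 to 0.42 for Foxa1, -0.016 to 0.13 for Foxa2, -0.089 to 0.079 for Cebpa, -0.14 to 0.22 for Nr5a2, -0.18 to 0.091 for Prox1 and -0.28 to 0.24 for Onecut1. The difference in the log2 ratio of Cebpb to Cebpa ran from -0.0097 (without Rbfox2 KO 1) to 0.30 (without Rbfox2 KO 2), and that in the Foxa3 share from 1.31 to 6.97 points. Of the 36 pairs of factors, 2 passed with library totals, and 0 to 1 with a sample left out (1 without WT 2 or WT 5). The cause was not tested. Whether the sample numbers pair the mice cannot be told from only 3 same-number pairs. Their correlations of deviations were 0.048 to 0.170 (mean 0.127), against -0.41 to 0.37 (mean -0.031) between different numbers. Of the Rbfox2 KO samples, 0 of 3 correlated best with their own number, and the replicate block called 0 genes. Depth limits Onecut1 most.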

Other observations

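Other cell types in the same libraries gave the following values. The 8 stellate cell markers summed to 157.9 to 209.9 CPM in WT and to 146.5 to 268.8 CPM in Rbfox2 KO livers, with Rbfox2 KO 1 highest. Skeletal muscle markers summed to 8.22 to 352.1 CPM in WT and 1.26 to 209.7 CPM in Rbfox2 KO, highest in WT 5, WT 4 and Rbfox2 KO 1, and all 10 were lower in Rbfox2 KO by the fitted log2 fold change, with 0 past the edgeR threshold and 0 with an unadjusted p under 0.05.

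In TMM-scaled CPM, Rbfox2 KO 1 held the lowest level of 4 of the 9 factors (Foxa1, Cebpa, Nr5a2 and Prox1) and the highest of Foxa3. Rbfox2 KO 3 held the highest level of 4 (Foxa2, Cebpb, Nr5a2 and Prox1). The low ranks of Rbfox2 KO 1 depend on its TMM factor of 1.29, the highest of all libraries. Foxa1, Nr5a2 and Prox1 had fewer counts in WT 1 than in Rbfox2 KO 1, although WT 1 was the larger library. For 20 values examined for a WT library set apart from the other 4, 0 passed Dixon's critical value of 0.71, where chance alone gives about 1.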
